A study of Mus musculus with 16 samples.

Results

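The genes described here are the protein-coding genes of mouse chromosome 12 that were well expressed in an MLL-AF9 leukemia cell line. GENCODE vM21, on the mouse build GRCm38, placed 2466 rows of the deposited table on this chromosome, 643 of them protein-coding. A mean estimated count of at least 100 over the 16 libraries left 347 genes, and 24 genes of other gene families or pathways were left out by name, so that 323 members remained of 53801 rows in all. The chromosome was selected on measured values: its genes were lower together in the knockout. The knockout values of the members are therefore given as a description, and "called" says of them only that a gene passed the threshold in the fit across all genes. Nothing is supported with those calls and no p is given for them, while the response to low oxygen was not used in that choice and was tested. At the count limit, Tspan13 (mean count 117.9), Pgf (125.9) and Fam49a (129.8) were the last genes inside, and Eml5 (96.71), Ift43 (95.75) and Gphn (94.53) the first outside. The knockout log2 fold changes at 20% and 2% oxygen were -0.089 and -0.67 for Tspan13, -0.38 and -0.073 for Pgf, 0.20 and -0.082 for Fam49a, -0.67 and -0.039 for Eml5, -0.37 and -0.38 for Ift43, and 0.91 and 0.81 for Gphn.

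All cells were of a mouse acute myeloid leukemia (AML) line driven by the MLL-AF9 fusion, grown in RPMI with serum, IL-3 and SCF, and in all groups, controls included, Cas9 was switched on with 4-OHT. MCT4-KO cells had Slc16a3, the gene of the proton-coupled lactate exporter MCT4, knocked out with that nuclease, and control cells carried a non-targeting guide. Each was then kept at 20% or 2% oxygen, which gave 4 groups of 4 libraries: control 20% oxygen, MCT4-KO 20% oxygen, control 2% oxygen and MCT4-KO 2% oxygen. The labels do not say whether the 4 libraries of a group came from separate cultures, nor whether the knockout cells were 1 clone or a pool, so the spread between libraries may be technical.

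Genes of a chromosome have no common function, but they share its copy number. When part of the cells in a culture gain or lose a copy of a chromosome, the transcripts of most of its genes move together by a similar proportion, while genes under strong feedback can move less. No DNA measurement was used here, and the copy number of chromosome 12 in these cells was not tested. Chromosome 12 of the mouse carries the immunoglobulin heavy chain locus and genes as different as Dnmt3a, which encodes a DNA methyltransferase, Akt1, a growth-signalling kinase, and Odc1, the first enzyme of polyamine synthesis.

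Promoters of 4 members on which the results turn were taken from RefSeq on GRCm38.p6: the member with the largest rise at 2% oxygen (Chga, a granule protein of secretory cells), the one with the largest fall (Trmt61a, a tRNA methyltransferase subunit), one that rose alike in both genotypes (Pdia6, a disulfide isomerase of the endoplasmic reticulum) and one whose knockout difference changed sign with oxygen (Nol10, a nucleolar protein of ribosome assembly). Each sequence runs 5′ to 3′ on the plus strand over 300 bases, 250 before and 50 after the RefSeq start. Capitals mark ACGTG on either strand, one form of the core of the site that hypoxia-inducible factors bind. The other form, GCGTG, was neither marked nor counted, and read on either strand it stands in all 4 windows. The positions are chr12:102554691-102554990 for Chga, chr12:111677855-111678154 for Trmt61a, chr12:17266339-17266638 for Pdia6 and chr12:17348243-17348542 for Nol10.
Chga: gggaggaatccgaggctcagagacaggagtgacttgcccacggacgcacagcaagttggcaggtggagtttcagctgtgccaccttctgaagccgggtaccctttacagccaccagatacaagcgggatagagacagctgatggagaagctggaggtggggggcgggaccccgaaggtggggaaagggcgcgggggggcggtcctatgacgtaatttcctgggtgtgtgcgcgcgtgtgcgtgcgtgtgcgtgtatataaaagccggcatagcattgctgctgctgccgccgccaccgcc
Trmt61a: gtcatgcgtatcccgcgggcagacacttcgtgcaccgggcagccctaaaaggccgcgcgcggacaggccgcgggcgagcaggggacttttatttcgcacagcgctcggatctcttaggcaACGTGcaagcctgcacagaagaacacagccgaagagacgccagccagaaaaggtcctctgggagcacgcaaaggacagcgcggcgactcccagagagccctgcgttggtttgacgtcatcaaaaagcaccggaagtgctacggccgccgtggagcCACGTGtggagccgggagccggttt
Pdia6: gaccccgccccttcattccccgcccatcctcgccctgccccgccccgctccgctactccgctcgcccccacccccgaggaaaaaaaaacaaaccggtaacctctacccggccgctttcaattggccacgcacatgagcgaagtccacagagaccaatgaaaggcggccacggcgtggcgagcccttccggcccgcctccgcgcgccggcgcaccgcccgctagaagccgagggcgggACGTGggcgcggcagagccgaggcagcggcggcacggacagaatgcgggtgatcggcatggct
Nol10: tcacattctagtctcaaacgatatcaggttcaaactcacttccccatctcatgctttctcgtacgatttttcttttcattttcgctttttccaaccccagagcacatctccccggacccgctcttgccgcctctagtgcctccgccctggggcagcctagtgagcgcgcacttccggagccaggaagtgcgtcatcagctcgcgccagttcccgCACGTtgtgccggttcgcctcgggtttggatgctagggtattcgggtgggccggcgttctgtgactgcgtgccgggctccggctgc
The Chga window held 0 matches to ACGTG, and those of Pdia6 and Nol10 held 1 each. That of Trmt61a held 3, counted over both strands, which include a CACGTG that matches on each strand.

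The libraries held 21192179 to 28871459 estimated counts. Slc16a3 was at 235, 199, 184 and 222 CPM in the control libraries at 20% oxygen and at 70.4 to 94.7 CPM in the knockout, and at 789 to 844 against 358 to 370.3 CPM at 2% oxygen, so the targeted gene was lower in all 8 knockout libraries than in the controls of the same oxygen level. All 9 myeloid and leukemia markers looked up were expressed (177 to 219 CPM for Kit and 233 to 458 CPM for Hoxa9), while Cd3e and Col1a2 were at 0 in all 16 libraries. Mpo, a granule enzyme of myeloid cells, was at 139 ± 14.5 and 309 ± 29.3 CPM in control and knockout at 20% oxygen, and at 329 ± 27.8 and 444 ± 26.6 CPM at 2% (SD, n = 4 each), and its part in the results was not tested. Hoxa9 went the other way, with means of 449 and 383 CPM at 20% and 263 and 236 CPM at 2%. So did Meis1, with 116 and 101 CPM at 20% and 104 and 82.4 CPM at 2%. Csf2rb went with Mpo, with 239 and 249 CPM at 20% and 289.9 and 305 CPM at 2%. Of the 4 T cell markers only Lck exceeded 1 CPM (10.1 to 37.5 CPM). Among the erythroid markers Klf1 was found in every library, at 0.999 to 2.45 CPM, and no B cell or fibroblast marker reached 1 CPM. Mitochondrially encoded genes took 0.750% ± 0.179 and 0.720% ± 0.0671 of the counts of control and knockout at 20% oxygen, and 0.298% ± 0.0442 and 0.379% ± 0.0358 at 2% (SD, n = 4 each).

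At 20% oxygen, the members were lower in the knockout almost throughout. The log2 fold change of MCT4-KO against control had a median of -0.094 over the 323 members, a level 6.33% lower, with quartiles of -0.15 and -0.04, and it was below 0 for 281 members (87.0%). The 9217 protein-coding genes of the other 18 autosomes that met the same count limit had a median of 0.007, with 46.7% below 0. Of the members, 84 (26.0%) were called lower (adjusted p under 0.05 over all genes, edgeR's quasi-likelihood test) beside 4.80% of all 13774 genes tested, and 7 (2.17%) were called higher beside 4.96%. Since this contrast chose the chromosome, nothing is read from these shares. In bulk RNA, a slightly lower level in all cells and a larger loss in some of them cannot be told apart. The counts rest partly on single libraries: the 84 became 53 without control replicate 2, 50 without knockout replicate 2 and 54 without knockout replicate 3, and the 7 became 4 without control replicate 1 or 2 and 3 without knockout replicate 3, while the median stayed between -0.10 and -0.09.

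The shift stood in every knockout library. Relative to the mean of the controls at the same oxygen level, the median member was at -0.084, -0.099, -0.092 and -0.10 on the log2 scale in the knockout libraries at 20% oxygen, and at 0.0041, 0.0015, 0.0096 and -0.0045 in the controls. The lowest median of any other autosome in those 4 knockout libraries was -0.012 (chromosome 18, replicate 3). In the 2% oxygen libraries the members' medians were -0.086, -0.081, -0.074 and -0.084 in the knockout and -0.0057, 0.0074, -0.002 and -0.0012 in the controls. No other autosome went below -0.026 in a knockout library at 2% oxygen (chromosome 6, replicate 2). The controls form the mean they are set against, so their medians centre near 0 by construction. Knockout libraries of an oxygen level share that mean. The share of all counts that fell to the members was 3.35% ± 0.0327 in controls and 3.13% ± 0.0386 in the knockout at 20% oxygen, and 2.88% ± 0.0352 and 2.81% ± 0.0160 at 2% (SD, n = 4 each).

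**Figure D1:**
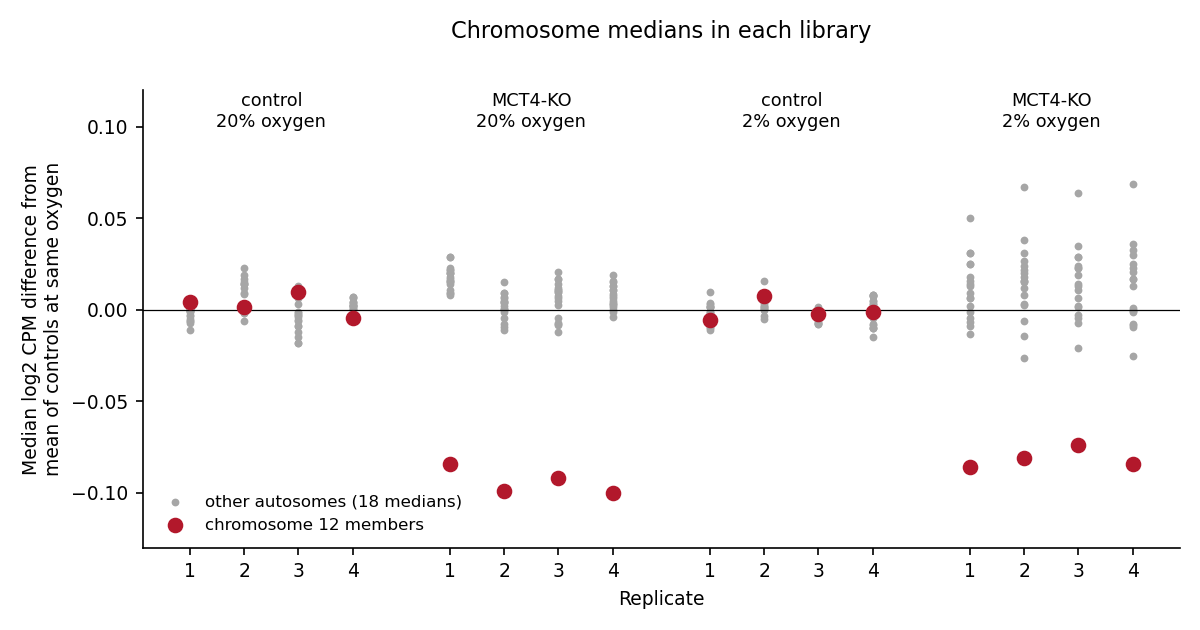
Median log2 CPM of the 323 chromosome 12 members (red) and of the genes of each of the other 18 autosomes (grey), relative to the mean of the control libraries at the same oxygen level, in each of the 16 libraries. The red points lie between -0.10 and -0.074 in the 8 knockout libraries and between -0.0057 and 0.0096 in the 8 controls, while the grey points stay between -0.026 and 0.069 throughout. Controls centre near 0 by construction, since they form that mean.

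Taken chromosome by chromosome, with no gene left out by name, chromosome 12 had a median of -0.098 at 20% oxygen. The medians of the other 18 autosomes were between 0.00043 (chromosome 6) and 0.018 (chromosome 8), with 42.8% to 49.9% of their genes below 0. At 2% oxygen the median of chromosome 12 was -0.08, and those of the others ran from -0.026 (chromosome 6) to 0.062 (chromosome 16). Single genes spread over more than these medians, and the quartile ranges of chromosome 12 and of the others overlapped at both oxygen levels.

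**Figure D2:**
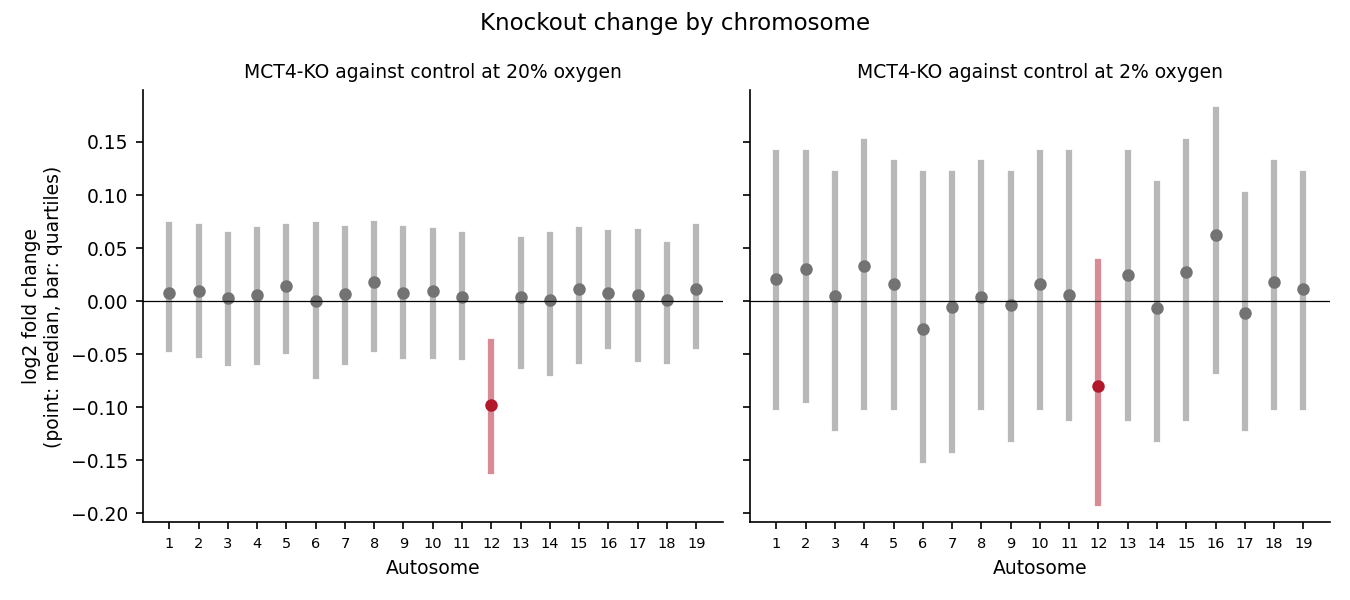
Median (point) and quartiles (bar) of the log2 fold change of MCT4-KO against control for protein-coding genes with a mean count of at least 100 on each of the 19 autosomes, at 20% and at 2% oxygen. Chromosome 12 (red) has the lowest median in both panels, -0.098 and -0.08, and the medians of the other chromosomes lie from 0.00043 to 0.018 and from -0.026 to 0.062.

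Medians below 0 were found along the whole chromosome. In windows of 10 Mb, all 11 windows with at least 10 members had a median below 0 at 20% oxygen, from -0.13 to -0.035. The window from 0 to 10 Mb, from Rab10 to Ttc32, had a median of -0.12 with 24 of 24 members below 0, and the last, from Ppp2r5c to Sp4 beyond 110 Mb, had -0.077 with 35 of 43 below 0. Among 218 such windows of the other autosomes the medians ran from -0.058 to 0.093, and 0 were at or below the median of the members. The smallest shift was between 90 and 100 Mb (-0.035, 12 members), where Dio2, Cep128 and Foxn3 lie. At 2% oxygen 10 of the 11 windows were below 0, from -0.13 to 0.052, the exception being 10 to 20 Mb with the 14 members from Rdh14 to Hpcal1. There the windows of other autosomes ran from -0.12 to 0.19, and 7 of the 218 were at or below the members' median.

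**Figure D3:**
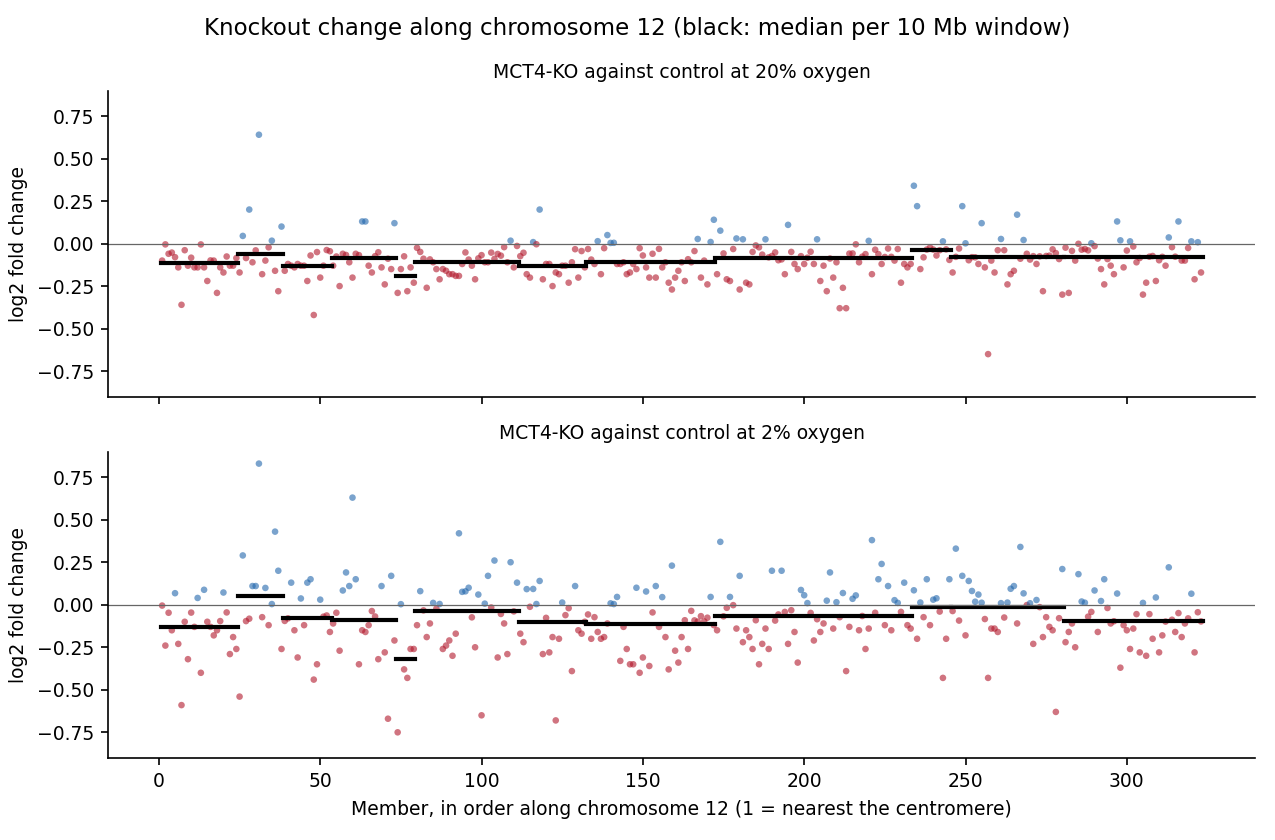
Log2 fold change of MCT4-KO against control for each of the 323 members, in their order along chromosome 12, with red points below 0 and blue points above, and black lines at the median of each 10 Mb window. At 20% oxygen all windows lie below 0; at 2% oxygen the points spread more widely and the window from 10 to 20 Mb lies at 0.052.

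The median was below 0 at every level, length and strand. At 20% oxygen the median was -0.12, -0.08 and -0.096 for the members split evenly into lower, middle and upper levels by mean count, and -0.12, -0.11 and -0.07 when split likewise into shorter, middle and longer genes. It was -0.098 for the 178 members on the plus strand and -0.094 for the 145 on the minus strand, and -0.092 for the 203 members whose exons overlap no other gene. Chromosome 12 genes outside the members were lower too: the median was -0.13 for the 24 left out by name, -0.19 for the 66 protein-coding genes under the count limit and -0.13 for the 110 tested genes that do not code for proteins. At 2% oxygen those 3 sets had medians of -0.023, -0.10 and -0.11. All genes tested had medians of -0.0051 at 20% and -0.004 at 2% oxygen, but low-count or noncoding genes of other chromosomes were not compared separately. Whether the lower medians of the 66 and the 110 genes are particular to chromosome 12 was therefore not tested.

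The most abundant members carry the least counting error. Fut8, which adds the core fucose to N-glycans and took 4.41% of the members' counts in control cells at 20% oxygen, was picked for its level. Fut8 (chr12:77238125-77476338) was at 1374, 1398, 1423 and 1359 CPM in the controls and 1244, 1166, 1144 and 1222 CPM in the knockout at 20% oxygen, without overlap, a log2 difference of -0.22 ± 0.030 (SE). At 2% oxygen its level was 1251, 1301, 1259 and 1246 CPM against 1186, 1193, 1181 and 1188 CPM, again without overlap, a difference of -0.091 ± 0.030.

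The lowest members at 20% oxygen, among those whose average log2 CPM reached 4, were Chga (-0.65 ± 0.12), Acyp1 (-0.38 ± 0.044), Adcy3 (-0.36 ± 0.079), Cep170b (-0.30 ± 0.052) and Dync1h1 (-0.29 ± 0.10). Cep170b is a microtubule-binding protein of the centrosome. Acyp1, a small acylphosphatase (chr12:85272398-85288438), was at 89.4, 88.2, 84.9 and 77.2 CPM in the controls and 65.4, 66.2, 60.7 and 68.6 CPM in the knockout. At 2% oxygen it was at 71.3, 71.7, 71.2 and 72.5 CPM against 56.2, 54.0, 53.1 and 56.0 CPM, so its groups were apart at both levels and its differences, -0.38 and -0.39 ± 0.045, were alike. Dync1h1, the heavy chain of cytoplasmic dynein, is the least certain of the 5. Its control libraries at 20% oxygen ran from 247 to 412 CPM against 261 to 285 CPM in the knockout, they overlapped, and the difference ranged from -0.41 without control replicate 2 to -0.18 without control replicate 4.

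A few members went the other way. At 20% oxygen the 7 called higher were Greb1, Pik3cg, Dio2, Cep128 and Dglucy, and outside the rule for named genes Prkar2b (0.13) and Lrr1 (0.20), chosen after their values were seen. Greb1, a gene first known as an estrogen target, was below the level set for naming and was singled out after its values were seen. Its level (chr12:16670615-16800886) was 5.71, 4.14, 4.98 and 5.86 CPM in the controls and 6.87, 8.95, 8.42 and 7.94 CPM in the knockout at 20% oxygen, a difference of 0.64 ± 0.10, and 4.88, 5.01, 4.38 and 4.16 against 8.03, 7.76, 8.51 and 8.46 CPM at 2% oxygen, a difference of 0.83 ± 0.11. The groups did not overlap at either level. Dio2, the deiodinase that makes active thyroid hormone, was at 46.0, 44.0, 43.2 and 45.9 CPM in controls and 57.6, 56.8, 56.7 and 55.8 CPM in the knockout at 20% oxygen (0.34 ± 0.032), and the 2 groups lay closer at 2% (0.085 ± 0.032). Dglucy, an enzyme of D-glutamate breakdown, differed by 0.22 ± 0.058 and 0.17 ± 0.053. Cep128, a centriole protein, and Pik3cg, the catalytic subunit of a leukocyte PI3 kinase, were higher at 20% oxygen (0.22 ± 0.052 and 0.13 ± 0.042) and lower at 2% (-0.20 ± 0.051 and -0.16 ± 0.041). Serpina3g, a protease inhibitor, was at 0.17 ± 0.056 and was not called. The calls of Prkar2b and Lrr1 were each lost without any of 6 of the 8 libraries. That of Pik3cg was lost without any of 5, and that of Dglucy without knockout replicate 3.

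At 2% oxygen the median of the members was again below 0, and the single genes were more widely spread. The median log2 fold change was -0.082 with TMM scaling and -0.042 with scaling by total counts. Relative to the other autosomes it was -0.093 and -0.094, which a scaling leaves nearly unchanged because it moves all genes nearly alike. With TMM the log2 fold change had quartiles of -0.19 and 0.03, and 216 members (66.9%) were below 0. The other autosomes had a median of 0.011 with 47.5% below 0. Called lower were 123 members (38.1%), beside 19.1% of all genes tested, and called higher 35 (10.8%), beside 19.4%. Scaling by total counts gave 55 members called higher. The 2 knockout contrasts have no library in common, but the chromosome was chosen for its shift in the knockout, so their agreement is a description. With 87.0% of the members below 0 at 20% oxygen and 66.9% at 2%, a large share below 0 in both follows from those shares. The difference was below 0 in both for 192 members (59.4%) and above 0 in both for 18, against 24.8% and 30.6% of the genes of other autosomes, and 35 members (10.8%) were called lower in both, 3 (0.929%) higher in both (Greb1, Dio2 and Dglucy) and 12 (3.72%) in opposite directions, against 2.19%, 2.46% and 1.52% on the other autosomes. Across members the 2 differences had a Pearson correlation of 0.22 and a Spearman correlation of 0.087, a description over 323 genes that share their libraries and are not independent replicates.

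Groups that did not overlap were counted as well. At 20% oxygen the 4 knockout libraries were all below the 4 controls for 105 members, beside 6.89% of all genes tested, and all above for 7, beside 7.68%. At 2% oxygen they were all below for 112 members and all above for 33, beside 18.5% of all genes tested in each direction. No member differed by 2-fold in either knockout contrast.

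The lowest members at 2% oxygen by the same rule were Nfkbia (-0.65 ± 0.042), Evl (-0.63 ± 0.038), Adcy3 (-0.59 ± 0.050), Rdh14 (-0.54 ± 0.070) and Foxn3 (-0.43 ± 0.063). Rdh14 is a retinol dehydrogenase and Foxn3 a forkhead factor. Nfkbia encodes an inhibitor of NF-kappaB (chr12:55489410-55492647). It was at 47.1, 46.1, 42.6 and 46.8 CPM in controls and 42.9, 41.1, 45.0 and 45.4 CPM in the knockout at 20% oxygen, which overlapped, and at 67.2, 62.5, 65.7 and 69.6 against 41.9, 41.9, 42.6 and 42.3 CPM at 2%. Only the 4 control libraries at 2% oxygen stood high. Evl, a regulator of actin filament growth (chr12:108554720-108688516), showed 22.3, 22.7, 19.6 and 21.5 CPM against 20.9, 21.0, 21.2 and 19.8 CPM at 20% oxygen and 86.1, 89.4, 90.0 and 84.1 against 57.3, 55.8, 57.8 and 54.6 CPM at 2%. For Slc38a6, a transporter of the amino acid carrier family, the differences were -0.027 ± 0.037 and -0.40 ± 0.037, and for Sos2, which activates Ras, -0.11 ± 0.047 and -0.39 ± 0.049. Arl4a, a small GTPase below the level set for naming, had the lowest value of any member at 2% oxygen (-0.75 ± 0.066, against -0.29 ± 0.085 at 20%).

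The highest members at 2% oxygen by that rule included Nol10 (0.43 ± 0.060), Angel1 (0.38 ± 0.055), Actn1 (0.37 ± 0.055) and Dicer1 (0.34 ± 0.049). Nol10 was at 63.9, 64.0, 69.8 and 57.3 CPM in controls and 60.4, 57.2, 52.9 and 58.3 CPM in the knockout at 20% oxygen (-0.16 ± 0.052), and at 24.7, 28.1, 26.2 and 27.3 against 36.4, 34.3, 36.2 and 36.7 CPM at 2%. Its groups overlapped at 20% oxygen, where it was not called, and stood apart at 2%. Dicer1 encodes the ribonuclease that cuts microRNA precursors (chr12:104687742-104751952). It was at 91.8, 86.6, 99.5 and 95.5 CPM against 95.0, 90.6, 80.8 and 84.6 CPM at 20% oxygen (-0.089 ± 0.048) and at 73.8, 74.1, 72.8 and 70.4 against 90.4, 92.8, 88.1 and 96.3 CPM at 2%. Its groups likewise overlapped at 20% oxygen only. Actn1, an actin cross-linking protein, differed by 0.076 ± 0.066 at 20% oxygen.

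**Figure D4:**
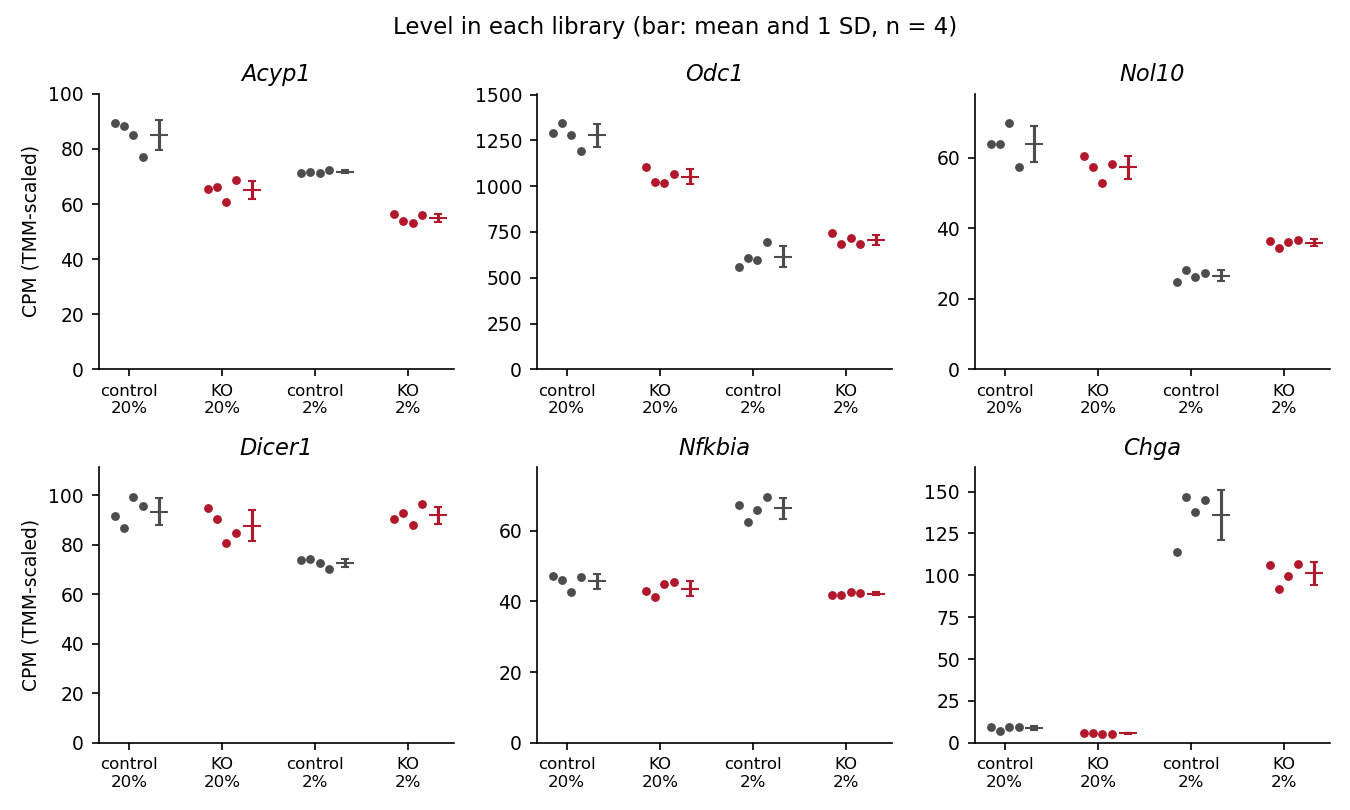
TMM-scaled CPM of 6 members in each library (points), with the mean and 1 SD of each group of 4, for controls (grey) and MCT4-KO (red) at 20% and 2% oxygen. Acyp1 is lower in the knockout at both oxygen levels, the mean of Odc1, Nol10 and Dicer1 in the knockout is below that of controls at 20% and above it at 2%, Nfkbia stands out in controls at 2% only, and Chga is above 90 CPM only at 2% oxygen.

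The difference between the knockout contrasts at 2% and 20% oxygen, which is made of the contrasts that chose the chromosome, had a median of 0.015 over the members. It was called higher for 56 members, beside 11.6% of all genes tested, and lower for 38, beside 11.3%. Besides the genes above, Odc1 (chr12:17544794-17551505) went from 1292, 1345, 1281 and 1193 CPM in controls and 1104, 1022, 1018 and 1066 CPM in the knockout at 20% oxygen (-0.28 ± 0.052) to 558, 610.2, 595 and 693 against 744, 682, 716 and 686 CPM at 2% (0.20 ± 0.053), where the groups overlapped. Hspa2, a heat shock protein, went from -0.27 ± 0.057 to 0.23 ± 0.051.

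The members were also grouped by role, in 9 lists written from general knowledge with earlier results of these data known, which together held 229 of the 323. Some genes, such as Nfkbia, stand in 2 lists. At 20% oxygen the median was below 0 in each of the 9 lists and in the 94 members of no list (-0.10). The counts of called genes in the lists stand beside 4.80% lower and 4.96% higher of all genes tested at 20% oxygen, and 19.1% and 19.4% at 2%, and nothing is read from them.

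Regulators of chromatin and transcription (39 members) had a median of -0.11 at 20% and -0.091 at 2% oxygen, with 36 and 29 members below 0. Called lower were 11 and 16 (beside 4.80% and 19.1% of all genes tested), and called higher 0 and 2 (beside 4.96% and 19.4%). Baz1a, a subunit of the ACF chromatin remodeller, differed by -0.19 ± 0.046 and -0.17 ± 0.046, the zinc finger factor Yy1 by -0.091 ± 0.032 and -0.079 ± 0.032, and Batf, an AP-1 family factor, by -0.11 ± 0.046 and -0.15 ± 0.051. The groups of Yy1 overlapped at 20% oxygen, where the libraries held 385, 385, 397 and 387 CPM against 387, 358, 351 and 364 CPM. Dnmt3a, often mutated in human AML, was at 86.1, 81.1, 83.9 and 87.0 against 85.6, 80.9, 74.4 and 79.2 CPM at 20% oxygen and 83.6, 74.7, 73.3 and 74.2 against 79.6, 80.5, 81.0 and 79.5 CPM at 2%, with overlap and no call at either level. Asxl2, a Polycomb-associated protein, and Id2, an inhibitor of helix-loop-helix factors, differed by -0.06 ± 0.054 and -0.42 ± 0.24 at 20% and by -0.047 ± 0.057 and -0.44 ± 0.10 at 2%; Id2 was low at 20% oxygen, 0.869 to 1.73 CPM.

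Genes of metabolism and mitochondria (38 members) had medians of -0.11 and -0.12, with 34 and 30 members below 0, 12 and 20 called lower and 0 and 2 called higher, beside those same shares of all genes tested. Nampt, which makes a precursor of NAD, was at 109, 105, 112 and 108 against 95.2, 95.9, 95.5 and 98.1 CPM at 20% oxygen, without overlap (-0.17 ± 0.029), and differed by -0.037 ± 0.027 at 2%. Dlst, a subunit of the 2-oxoglutarate dehydrogenase complex, differed by -0.11 ± 0.030 and 0.015 ± 0.030. Its call at 20% oxygen was lost without any of 5 of the 8 libraries. Pygl, the liver form of glycogen phosphorylase, differed by -0.094 ± 0.030 and -0.20 ± 0.030.

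Signalling genes (35 members) had medians of -0.098 and -0.061, with 9 and 14 called lower (beside 4.80% and 19.1% of all genes tested) and 2 called higher at each oxygen level (beside 4.96% and 19.4%). Akt1, at 331, 346, 313 and 313 against 312, 290.0, 301 and 305 CPM at 20% oxygen, had groups that just failed to overlap (-0.11 ± 0.035) and was not called. Membrane traffic and endoplasmic reticulum genes (34 members) had medians of -0.081 and -0.058, with 31 and 19 below 0. Pdia6 was an exception, with 305, 315, 289 and 285 against 307, 296, 303 and 303 CPM at 20% oxygen and a difference of 0.017 ± 0.034. The medians were -0.046 and -0.028 for DNA repair, replication and cell division (20 members), -0.081 and -0.068 for ubiquitin and protein turnover (15), -0.10 and -0.16 for cytoskeleton and adhesion (15), and -0.073 and -0.16 for immune and myeloid genes (11), of which 1 and 7 were called lower, beside 4.80% and 19.1% of all genes tested, and 1 and 0 were called higher, beside 4.96% and 19.4%.

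Genes of RNA processing and modification lay mostly below 0 at 20% oxygen and mostly above it at 2%. Of its 27 members, 25 were below 0 at 20% oxygen, 15 called lower and 0 higher (beside 4.80% and 4.96% of all genes tested), with a median of -0.13. At 2% oxygen 6 were below 0, 2 were called lower and 11 higher (beside 19.1% and 19.4%), with a median of 0.10. The difference between the contrasts was called higher for 21 of the 27 and lower for 2, beside 11.6% and 11.3% of all genes tested. Fcf1, which acts in assembly of the small ribosomal subunit, was at 87.4, 91.3, 87.3 and 77.0 against 68.8, 70.7, 71.7 and 70.6 CPM at 20% oxygen (-0.28 ± 0.046) and at 72.2, 74.4, 76.9 and 82.0 against 79.6, 79.5, 75.6 and 75.7 CPM at 2% (0.024 ± 0.047). Srsf5, a splicing factor of the SR family, went from -0.27 ± 0.058 to 0.17 ± 0.059, Angel1, of the CCR4 deadenylase family, from -0.18 ± 0.050 to 0.38 ± 0.055, and Trmt61a from -0.24 ± 0.067 to 0.15 ± 0.10. Dus4l, a tRNA dihydrouridine synthase chosen after its values were seen, went from -0.20 ± 0.064 to 0.63 ± 0.093. The 2 called lower at 2% oxygen were Gskip and Gpatch2l, both chosen after their values were seen (-0.23 and -0.14). Gskip binds GSK3, so its place in this list is doubtful.

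**Figure D5:**
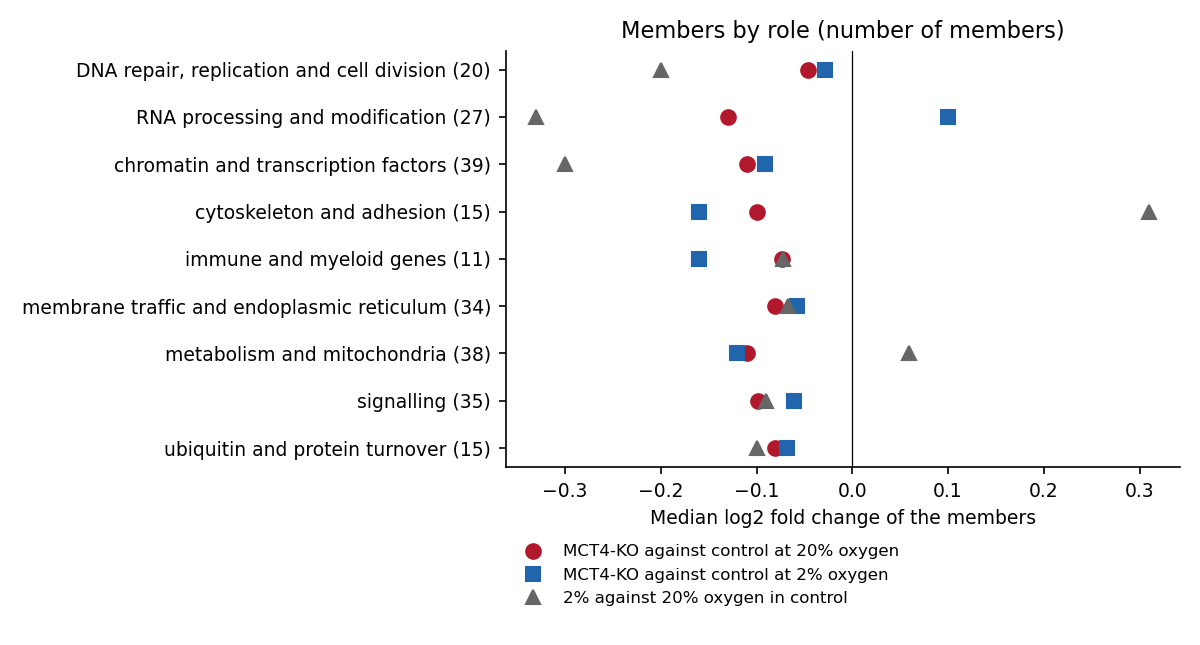
Median log2 fold change of the members of 9 role lists, with the number of members in brackets, for MCT4-KO against control at 20% oxygen (red circles) and at 2% oxygen (blue squares) and for 2% against 20% oxygen in control cells (grey triangles). The red circles all lie below 0, from -0.13 to -0.046, and RNA processing is the list whose blue square lies above 0, at 0.10.

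Low oxygen moved the members in both directions. In control cells 124 members (38.4%) rose and 151 (46.7%) fell at 2% against 20% oxygen, beside 38.7% and 39.6% of all genes tested (edgeR's quasi-likelihood test, adjusted p under 0.05). On the other autosomes, under the same count limit as the members, 40.4% rose and 43.6% fell. The members' median was -0.064, against -0.031 on the other autosomes. In MCT4-KO cells 117 rose (36.2%) and 143 fell (44.3%), beside 37.7% and 38.7% of all genes tested. The other autosomes had 39.8% and 43.1%, and the median was -0.027 for the members against -0.028 there. At least 2-fold rises were called for 30 members in control and 21 in MCT4-KO cells (9.29% and 6.50%), beside 11.4% and 10.3% of all genes tested. Such falls were called for 15 and 11 (4.64% and 3.41%), beside 8.81% and 6.89%. All genes tested include genes below the members' count limit. On the other autosomes, under that limit, the shares were 7.25% and 6.33% for such rises and 5.71% and 4.01% for such falls. Scaling by total counts instead of TMM lowered the median of all genes from -0.017 to -0.22 in control and from -0.014 to -0.19 in MCT4-KO cells. The members' median relative to that of all genes was -0.047 and -0.013 under either scaling, which had to hold since a scaling moves all genes nearly alike.

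The 2 oxygen contrasts share no library, and they matched closely. Over the members the log2 fold changes had a Pearson correlation of 0.97 and a Spearman correlation of 0.95, against 0.96 and 0.94 on the other autosomes, again a description across genes. The same 105 members (32.5%) rose and 135 (41.8%) fell in both genotypes, and 3 (0.929%) moved in opposite directions, against 35.5%, 38.2% and 1.10% on the other autosomes. Those 3, Ddx1, Zfp277 and Fcf1, were named after their values were seen. Ddx1, an RNA helicase, was at -0.084 in control and 0.14 in MCT4-KO cells, Fcf1 at -0.17 and 0.14, and Zfp277, a zinc finger protein, at 0.17 and -0.13. With scaling by total counts the 3 did not differ in direction between the genotypes, since the values above 0 became -0.042 for Ddx1, -0.039 for Fcf1 and -0.034 for Zfp277. Ddx1 in control and Zfp277 in MCT4-KO cells also lost their calls when certain single libraries were left out, 3 libraries each.

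Chga rose the most. It was at 9.56, 7.29, 9.38 and 9.44 CPM in control cells at 20% oxygen and 114, 147, 138 and 145 CPM at 2%, and at 6.04, 5.80, 5.44 and 5.41 against 106, 91.6, 99.7 and 107 CPM in MCT4-KO cells. The groups were far apart, with log2 changes of 3.93 ± 0.088 and 4.16 ± 0.095 (edgeR adjusted p = 3.95e-19 and 6.22e-19). Within each oxygen level the knockout was the lower of the 2 genotypes (-0.65 and -0.43 ± 0.068). Adcy3, an adenylyl cyclase (chr12:4133103-4213525), rose from 5.59, 5.87, 6.58 and 5.71 to 36.2, 37.7, 39.7 and 36.2 CPM in control cells and from 4.17, 4.58, 4.89 and 4.77 to 23.7, 25.2, 24.2 and 26.5 CPM in the knockout, by 2.66 ± 0.060 and 2.43 ± 0.064 (edgeR adjusted p = 4.50e-19 and 6.69e-18).

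Further rises were those of Evl (2.02 ± 0.042 in control and 1.44 ± 0.043 in MCT4-KO cells), Crip1, a small LIM protein (1.75 ± 0.084 and 1.66 ± 0.084), and Pygl (1.74 ± 0.031 and 1.64 ± 0.031). Pygl (chr12:70190811-70231488) went from 360.4, 351, 360.3 and 374 CPM to 1193, 1247, 1219.7 and 1169.6 CPM in control cells and from 334, 331, 341 and 348 to 1061, 1035, 1054 and 1067 CPM in the knockout (edgeR adjusted p = 1.41e-20 and 4.22e-20). Actn1 rose by 1.39 ± 0.061 and 1.68 ± 0.060, and Hspa2 by 1.18 ± 0.054 and 1.68 ± 0.054. Pdia6 rose by 1.41 ± 0.035 and 1.40 ± 0.035, from 305, 315, 289 and 285 to 786, 789, 771 and 836 CPM in control cells and from 307, 296, 303 and 303 to 795, 803, 806 and 787 CPM in the knockout. Its levels in the 2 genotypes overlapped at both oxygen levels. Nampt rose by 0.96 ± 0.028 and 1.09 ± 0.028, and Id2 by 3.70 ± 0.14 and 3.68 ± 0.16 from its low level.

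The largest fall was that of Trmt61a (chr12:111678105-111683902). It went from 36.5, 37.8, 34.8 and 31.7 CPM to 6.09, 6.0, 7.54 and 8.0 CPM in control cells and from 32.4, 28.8, 28.1 and 30.3 to 8.24, 7.03, 8.0 and 7.16 CPM in the knockout, by -2.35 ± 0.083 and -1.97 ± 0.082 (edgeR adjusted p = 5.66e-16 and 9.54e-15). Alkbh1, a dioxygenase that demethylates nucleic acids, changed by -1.59 and -1.41 log2 units, Mia2, a cargo receptor factor at exit sites of the endoplasmic reticulum, by -1.37 and -1.26, Jdp2, an AP-1 repressor, by -1.35 and -1.29, and Ifrd1, a transcriptional co-regulator, by -1.31 and -1.15, in control and MCT4-KO cells. Odc1 changed by -1.06 in control cells and by -0.57 in the knockout, and Nol10 by -1.26 and -0.67, and all of these were called falls in both genotypes. Jdp2 differed by -0.0045 ± 0.034 and 0.055 ± 0.039 between the genotypes at 20% and 2% oxygen, near 0 in both.

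The acyl-CoA thioesterases Acot1 and Acot2, close relatives that lie side by side, moved in opposite directions. Acot1 (chr12:84009490-84018371), the cytosolic form, rose from 7.74, 7.44, 6.05 and 7.35 to 27.6, 26.6, 28.4 and 31.1 CPM in control cells (1.99 ± 0.069), and Acot2 (chr12:83987861-83993873), the mitochondrial form, fell from 74.6, 88.2, 80.9 and 70.2 to 20.3, 22.7, 20.7 and 22.6 CPM (-1.86 ± 0.068). In MCT4-KO cells the changes were 1.65 ± 0.069 and -1.72 ± 0.068. Since the 2 genes are alike in sequence, the counting may have divided their reads wrongly, which was not tested.

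By role, 21 of the 27 RNA processing genes fell and 4 rose in control cells, with a median of -0.33, while in MCT4-KO cells 13 fell and 6 rose, with a median of -0.012. Chromatin and transcription factors fell in 23 and 24 of 39 cases and rose in 10 and 8 (medians -0.30 and -0.23). DNA repair, replication and division genes fell in 11 and 12 of 20 cases and rose in 5 in either genotype. Cytoskeleton and adhesion genes rose in 9 of 15 cases in both genotypes (median 0.31 in both), and metabolic genes in 17 and 14 of 38, with 12 falls in each. These counts stand beside the 38.7% and 39.6% of all genes tested that rose and fell in control cells, and the 37.7% and 38.7% in MCT4-KO cells.

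Promoters in the RefSeq table matched 278 of the 323 members. ACGTG, read on both strands, stood in 24.5% of them, in 26.0% of the 9920 matched promoters of all genes tested and in 20.5% of all 20595 promoters of this length. CACGTG, which contains ACGTG on both strands, stood in 8.99% of member promoters, 10.3% of those of genes tested and 7.66% of all. Among members that rose in control cells at 2% oxygen 31 of 113 promoters (27.4%) held ACGTG, and among those that fell 27 of 128 (21.1%). The match is a description of these letters in this window. Chga, with the largest rise, had no ACGTG in its window, and Trmt61a, with the largest fall, had 3 matches, with its CACGTG counted on each strand. GCGTG, which read on either strand stands in the windows of both genes, was not counted, so nothing is read from this contrast.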

How the data were processed

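RNA was selected by poly(A) and sequenced from 16 libraries, per the labels' protocols. The authors deposited 1 table of expected counts for 53801 Ensembl genes; HISAT2, RSEM and mm10 are named in the submitters' processing notes. Not given in the sources used here are versions, annotation and strand setting. Values were rounded, as 10.1% were not whole. Without the strand setting, reads of overlapping genes may have been divided wrongly.

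Symbols and positions came from GENCODE vM21 (53620 rows matched). Genes kept by filterByExpr in edgeR 4.0.16 (R 4.3.3) numbered 13774, with all 323 members among them. Libraries were scaled by TMM, and 1 negative binomial fit with 4 group means covered the 16 libraries (residual degrees of freedom 12, coefficient of variation 4.61%). P-values of the quasi-likelihood test were adjusted by Benjamini-Hochberg over all genes tested, and an adjusted p under 0.05 was called. CPM values are TMM-scaled, and errors are SE of the log2 fold change unless named SD. Each SE was derived from the test, as the size of the log2 fold change over the square root of its quasi-likelihood F. The script was tested on simulated data. Replicates of a group differed by more than counting noise (1.75 to 12.2 chi-square per gene).

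The members, role lists and tests were chosen with earlier results of these data known. Named members were a fixed set, the 5 highest and 5 lowest knockout differences and interactions, and the 6 largest oxygen rises and falls, all where average log2 CPM reached 4, and genes at the count limit; exceptions are stated. Alternatives were other scalings, count filters and member limits, DESeq2 1.42.0, limma-voom 3.58.1, the compared groups alone, a replicate block and leaving out each library. Values of some genes are not reported here.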

Additional observations from a re-analysis of the deposited data

Results flagged for a closer look

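In 10 of 232 groups of 4 libraries, for 57 members looked at one by one and for the median of all members, 1 library lay far from the other 3 for its group's range. Chance alone gives about 1 such group in 20. The low libraries were control replicate 2 for Chga (7.29 CPM) and control replicate 3 for Serpina3g (14.4 CPM) at 20% oxygen, and knockout replicate 3 at 20% oxygen for Cep170b (20.8 CPM). At 20% oxygen, the high ones were control replicate 3 for Yy1 (397 CPM) and Angel1 (28.5 CPM), and knockout replicate 1 for Hspa2 (38.6 CPM). At 2% oxygen, control replicate 4 was high for Slc38a6 (179 CPM) and for Crip1 (43.5 CPM, against 32.5 to 34.3 CPM in the other 3), control replicate 1 for Dnmt3a (83.6 CPM) and knockout replicate 2 for Yy1 (369.7 CPM).

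For 32 of these 57 members, the knockout difference at 2% oxygen was called apart from that at 20% by the interaction term of the edgeR model. The chromosome was chosen on the contrasts it is made of, so these values are a description. The knockout log2 fold change was higher at 2% oxygen by 0.83 for Dus4l, 0.59 for Nol10, 0.56 for Angel1, 0.50 for Hspa2, 0.48 for Odc1, 0.44 for Srsf5, 0.43 for Dicer1, 0.38 for Trmt61a, 0.31 for Fcf1 and Cep170b, 0.29 for Actn1, 0.22 for Ddx1, 0.14 for Nampt, 0.13 for Fut8 and 0.12 for Dlst. Its difference was -0.58 for Nfkbia, Evl and Tspan13, -0.46 for Arl4a, -0.45 for Foxn3, -0.42 for Cep128, -0.37 for Rdh14 and Slc38a6, -0.34 for Acot1, -0.30 for Zfp277, -0.29 for Pik3cg, -0.28 for Serpina3g, Sos2 and Prkar2b, -0.25 for Dio2, -0.16 for Gskip and -0.15 for Gpatch2l.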

How the results depend on the processing

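The median knockout difference of the members kept its sign under every alternative. Scaling by total counts gave -0.082 at 20% and -0.042 at 2% oxygen, 55 members called higher at 2%, a median of 0.042 for the difference between the knockout contrasts, medians of -0.27 and -0.21 for low oxygen in control and MCT4-KO cells, and 81 rises in control cells, where the same scaling lowered the median of all genes from -0.017 to -0.22. Under it 3 small rises changed sign, to -0.042 for Ddx1 and -0.039 for Fcf1 in MCT4-KO cells and -0.034 for Zfp277 in control cells. Relative to the other autosomes, the members stayed at -0.10 (20%) and between -0.094 and -0.093 (2%) under each scaling. A scaling moves all genes of a library nearly alike, so this had to hold and adds nothing to the shift. A minimum of 1 CPM in 8 libraries gave a median of -0.088 at 2% oxygen, and a minimum mean count of 500 gave -0.073. The low-oxygen median in control cells was -0.052 with DESeq2's size factors and with its Wald test, -0.058 with no count filter, -0.051 with 1 CPM in 8 libraries, -0.070 with the compared groups alone and -0.071 with a minimum of 500. In MCT4-KO cells it was -0.019 with DESeq2's size factors and Wald test, -0.014 with minimum mean counts of 50 or 500 and -0.013 with no gene left out by name. The cause of these moves was not tested. Leaving out 1 library gave 50 to 83 members called lower and 3 to 6 called higher in the knockout at 20% oxygen, medians of -0.09 to -0.077 in the knockout at 2%, -0.074 to -0.051 and -0.033 to -0.015 for low oxygen in control and MCT4-KO cells, and 0.0035 to 0.019 for the difference between knockout contrasts. Pdia6 in the knockout at 20% oxygen ranged from -0.0041 without control replicate 4 to 0.045 without control replicate 2. In the knockout at 2% oxygen, Pgf ranged from -0.16 without control replicate 3 to 0.088 without control replicate 4, Fam49a from -0.14 without control replicate 4 to 0.0053 without control replicate 1, and Fcf1 from -0.0031 without control replicate 1 to 0.061 without control replicate 4.

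Replicate numbers did not pair the libraries: over 16 pairs the correlations of deviations were -0.049 to 0.067, and 3 were highest for the own number. With a replicate block, 4 members were called higher in the knockout at 20% oxygen and 67 lower. The depth limits low members: Id2, at 0.869 to 1.73 CPM at 20% oxygen, had an SE of 0.24, against 0.030 for Fut8.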
